A study of Mus musculus with 18 samples.

Results

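The 10 genes studied here make, break down or store triglyceride in the liver, and their values were followed over the day: Gpam, Agpat2, Lpin1, Lpin2, Dgat1, Dgat2, Pnpla2, Pnpla3, Plin2 and Cidec. They were chosen by gene symbol, with earlier results of these data known. Each matched 1 row of the table, and they are 10 of its 14451 genes. The study asked which liver genes follow a daily rhythm. Livers came from wild-type (WT) male mice of 8 to 9 weeks of age in a cycle of 12 h light and 12 h dark, and no group carried another genotype or agent. The groups are the zeitgeber times (ZT, hours after lights on) ZT1, ZT5, ZT9, ZT13, ZT17 and ZT21, with the lights off from ZT12. Each group held 3 livers, 1 per mouse, so the 18 livers came from 18 animals and no mouse was followed over time. The mice sequenced were those with the best RNA of a larger number per group.

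Triglyceride is built on glycerol 3-phosphate by acyltransferases at the endoplasmic reticulum and the mitochondrial outer membrane, through lysophosphatidic acid, phosphatidic acid and diacylglycerol. It is kept in lipid droplets, whose surface proteins regulate the access of lipases. In the liver this store takes up fatty acids after feeding and gives them back for oxidation or for secretion as very low density lipoprotein, and mice eat mainly in the dark.

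Normalized values count estimated reads per 1000000 reads of the library, at the library size that the authors' normalization gave. Total depth was 10268168 to 23242842 estimated reads per liver, and the members lay between 9 reads (Cidec) and 11527 reads (Dgat2) in a liver, so that Cidec was the least precisely measured. By 17 clock genes, 17 of the 18 livers were nearest to the other livers of their own time. The exception, ZT5 replicate 3, was nearest to ZT9, and calls between ZT5 and a neighbouring time, as well as the ratios with an extreme at ZT5, are given without it. All 5 hepatocyte markers were present, with a summed value of 69201 to 99237, against 31.5 to 57.5 for 5 cholangiocyte markers and 136 to 220 for 5 stellate cell markers. Of 5 adipocyte markers only Cfd was used here, at 0.0433 to 1.92, and 2 of 5 pancreatic acinar markers summed to 6.04 to 15.3. Red blood cell markers summed to 108 to 674.

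Of the 10 genes, 6 followed a 24 h rhythm, namely Agpat2, Lpin1, Dgat2, Pnpla2, Plin2 and Cidec. The call was an adjusted P below 0.05 in limma's moderated F test of a 24 h cosine fitted to log2(value + 1), and 35.3% of the 14449 genes tested were called. Their peaks fell at different hours, from ZT7.75 for the lipase gene Pnpla2 through ZT12.6 for the acyltransferase gene Dgat2 to ZT23.8 for the droplet coat gene Plin2. The median amplitude of the 10 genes, measured on the log2 scale from the middle of the fitted curve to its peak, was 0.44, against 0.16 for all genes, and 8 of the 10 lay above the latter. The same 6 genes passed a moderated F test of any difference between the 6 times, which called 26.3% of all genes. The livers of the highest and the lowest time did not overlap in 9 of the 10 genes, all but Gpam, and the same was true of 70.8% of all genes. In bulk tissue, fewer cells of a type and less RNA per cell cannot be told apart.

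**Figure D1:**
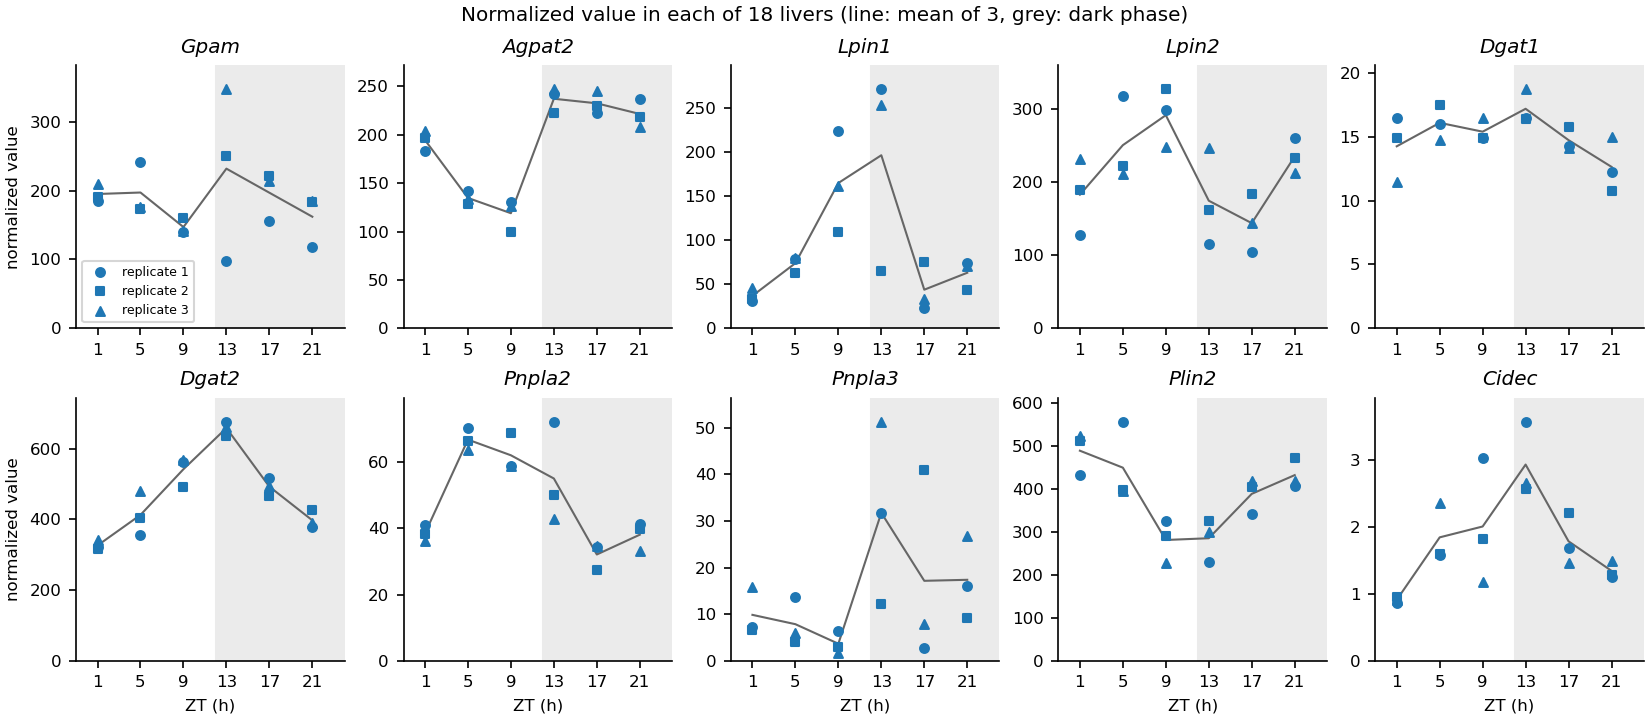
Normalized value (vertical axis, from 0) of the 10 genes in each of the 18 livers against ZT in hours, with 1 marker shape per replicate number, a line through the mean of 3 livers and the dark phase in grey. All 3 livers at ZT13 exceeded every other liver in Dgat2, whereas Gpam held both its lowest (97.7) and its highest value (348) at ZT13.

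**Figure D2:**
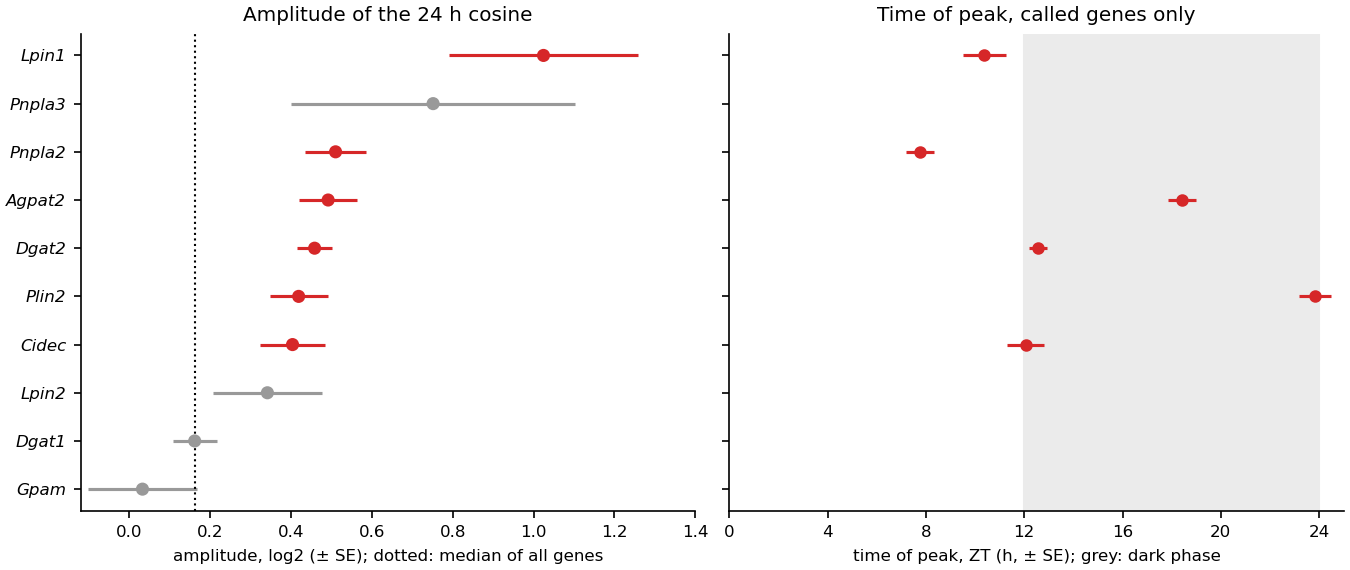
Left, amplitude of the 24 h cosine (log2, ± SE from 18 livers), with called genes in red, the others in grey and the median of all genes (0.16) as a dotted line. Right, time of peak (ZT in hours, ± SE) of the 6 called genes, with the dark phase in grey. Lpin1 had the largest amplitude of the 10 (1.02), and the peaks ran from ZT7.75 (Pnpla2) to ZT23.8 (Plin2).

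Gpam encodes the mitochondrial glycerol-3-phosphate acyltransferase, which opens the pathway, and lies on the minus strand of GRCm38 at chr19:55067268-55127238. Its values were 184, 191 and 210.4 at ZT1, 242, 173 and 177 at ZT5 and 140.1, 161 and 141 at ZT9. In the dark they were 97.7, 251 and 348 at ZT13, 156, 221 and 214 at ZT17 and 118, 183 and 185 at ZT21. The lowest and the highest of all livers were both taken at ZT13, which overlapped every other time. The livers of ZT9 lay below all livers of ZT1 and ZT5. The amplitude was 0.03 ± 0.14 (SE, n = 18), with an adjusted P of 0.980, and the time means from 147 (ZT9) to 232 (ZT13) did not differ beyond their spread. Without ZT13 replicate 1, the liver at 97.7, the difference between ZT9 and ZT13 was 1.00 on the log2 scale with an adjusted P of 0.0165, against 0.47 and 0.405 with it, and the test of any difference between times had an adjusted P of 0.0363, against 0.705.

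Agpat2 encodes an acyltransferase that turns lysophosphatidic acid into phosphatidic acid (chr2:26593057-26604417, minus strand). Its values in the light were 183, 196 and 204 at ZT1, 142, 129 and 133 at ZT5 and 131, 99.2 and 127 at ZT9. In the dark they were 242, 223 and 247 at ZT13, 223, 229.8 and 245 at ZT17 and 238, 219 and 209 at ZT21. All 9 livers taken in the dark exceeded all 9 taken in the light, and within the dark the 3 times overlapped. The mean was 119 ± 17.2 (SD, n = 3) at ZT9 and 237 ± 13.0 at ZT13, a ratio of 2.0. The cosine had an amplitude of 0.49 ± 0.072 (SE) and a peak at ZT18.4 ± 0.56 h, with an adjusted P of 0.000207.

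By 4 h steps, Agpat2 fell by 0.53 ± 0.10 (SE) on the log2 scale from ZT1 to ZT5 (adjusted P = 0.00763), rose by 1.00 ± 0.10 from ZT9 to ZT13 (adjusted P = 7.76e-05), and the other 4 steps were not called. Without ZT5 replicate 3 the fall was 0.52 with an adjusted P of 0.0342. A 12 h term added to the cosine, which measures a departure from a single wave, gave Agpat2 an unadjusted P of 0.000449 and an adjusted P of 0.0506. No member passed this test, which called 0.872% of all genes, while 2 members (Agpat2 and Lpin2) and 1815 genes had an unadjusted P below 0.05. The summed hepatocyte markers were lowest at ZT9, the trough of Agpat2, at 69201 to 73299 against 74782 to 99237 at the other times. Alb, the largest part of the sum, had its lowest mean at ZT9 (52953), as did Ttr (4006) and Serpina1a (4299, against 4317 at ZT5). Apoa1 had its lowest mean at ZT17 (6025, against 7003 at ZT9) and Cps1 at ZT1 (3410, against 3413 at ZT9). The part of these markers in the trough was not tested.

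Lpin1 and Lpin2 encode lipins, the phosphatases that turn phosphatidic acid into diacylglycerol, and lipin 1 also acts in the nucleus as a coactivator. Lpin1 lies at chr12:16535669-16610966 on the minus strand and Lpin2 at chr17:71182560-71249817 on the plus strand. Since the pair carries out 1 reaction and differed in course, a RefSeq promoter (GRCm38.p6) of each is shown. It runs from 250 bases before to 20 bases after the start site, read 5′ to 3′ along the gene. Lpin2 has further RefSeq start sites, and the first is shown. Capitals mark motifs found by letters on both strands of windows that reach 50 bases past the start.
Lpin1, chr12:16610947-16611216, minus strand: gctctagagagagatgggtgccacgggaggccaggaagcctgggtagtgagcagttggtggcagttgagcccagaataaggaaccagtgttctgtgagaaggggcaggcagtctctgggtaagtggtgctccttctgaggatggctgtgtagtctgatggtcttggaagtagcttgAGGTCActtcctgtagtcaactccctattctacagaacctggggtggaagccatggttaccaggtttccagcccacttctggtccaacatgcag
Lpin2, chr17:71183282-71183551, plus strand: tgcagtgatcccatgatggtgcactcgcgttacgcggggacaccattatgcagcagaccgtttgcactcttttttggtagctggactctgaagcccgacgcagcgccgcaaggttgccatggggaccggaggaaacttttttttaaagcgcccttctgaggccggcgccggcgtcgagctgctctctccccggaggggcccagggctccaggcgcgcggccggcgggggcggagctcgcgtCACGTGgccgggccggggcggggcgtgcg
Capitals in Lpin1 are AGGTCA, the core bound by nuclear receptors such as REV-ERB and ROR, which begins at position -74 and stood in 16.3% of 32851 promoters. Those in Lpin2 are the E-box CACGTG, the core bound by CLOCK and BMAL1, which begins at position -9 and stood in 7.15% of promoters. The second Lpin2 start site, not shown, had none of the motifs searched. The third, not shown either, had GTAAACA, a core of FOXO sites, at position -138. That motif stood in 3.65% of promoters. A match of letters is a description and does not show binding.

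Lpin1 swung the most of the 10 genes by fitted amplitude. Its values were 31.4, 33.7 and 45.4 at ZT1, 78.7, 62.7 and 80.2 at ZT5 and 224, 109 and 162 at ZT9. They were 271, 64.8 and 253 at ZT13, 23.5, 75.1 and 32.7 at ZT17 and 74.2, 43.8 and 70.9 at ZT21. Every liver at ZT9 and 2 of 3 at ZT13 exceeded all livers of the other times, whereas ZT13 replicate 2 lay within the range of ZT5. The mean at ZT13 was 196 ± 114 (SD) and that at ZT1 was 36.8 ± 7.49, a ratio of 5.33. The amplitude was 1.02 ± 0.23 (SE), above that of 99.4% of all genes, and the peak fell at ZT10.4 ± 0.87 h (adjusted P = 0.00757). From ZT13 to ZT17 Lpin1 fell by 2.06 ± 0.48 on the log2 scale (adjusted P = 0.0489). This call was lost without any 1 of 16 of the 18 livers, with adjusted P up to 0.187 (without ZT17 replicate 1), and it held without ZT13 replicate 2 (0.0130) or ZT17 replicate 2 (0.0244).

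Lpin2 had values of 127, 189 and 231 at ZT1, 318, 222 and 210.5 at ZT5 and 299, 327 and 248 at ZT9. In the dark it had 116, 161 and 246 at ZT13, 104, 184 and 144 at ZT17 and 259.7, 233 and 212 at ZT21. The livers at ZT9 lay above those at ZT1, ZT13 and ZT17, and the livers at ZT17 also lay below those at ZT5 and ZT21. The other pairs of times overlapped. The cosine was not called (amplitude 0.34 ± 0.14, adjusted P = 0.129), and the test of any difference between times had an adjusted P of 0.0510, which was below 0.05 in 9 of 24 alternatives (0.0185 to 0.108 over the 24). These 9 were equal column sums (0.0251), genes of a mean value of at least 1 (0.0448), a trended prior variance (0.0225), voom weights (0.0234) and leaving out ZT1 replicate 1 (0.0452), ZT1 replicate 3 (0.0398), ZT13 replicate 1 (0.0494), ZT13 replicate 3 (0.0185) or ZT17 replicate 2 (0.0371). The step from ZT9 to ZT13, at -0.80 ± 0.27, was called with a trended prior variance (0.0487) and without ZT13 replicate 3 (0.0277), but not otherwise (0.0819). The log2 ratio of Lpin1 to Lpin2 within a liver was -2.25 ± 0.24 (SD, n = 3) at ZT1 and -0.01 ± 1.26 at ZT13, and it varied over the 6 times (permutation test, P = 0.0154, adjusted over 6 pairs 0.0282). Without ZT1 replicate 2 the adjusted P of the pair was 0.0570.

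Dgat1 and Dgat2 encode unrelated enzymes that carry out the same final acylation of diacylglycerol. Dgat1 lies at chr15:76502015-76511953 and Dgat2 at chr7:99153658-99182719, both on the minus strand. Per kilobase of the longest coding transcript, the mean normalized value was 209 for Dgat2, the highest of the 10 genes, and 7.97 for Dgat1, the second lowest.

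Dgat2 had values of 321, 317 and 341 at ZT1, 356, 403 and 479.9 at ZT5 and 564, 493 and 569.6 at ZT9. It had 676, 637 and 663 at ZT13, 516, 467 and 495 at ZT17 and 378, 426 and 389 at ZT21. All livers at ZT13 exceeded all others, and all livers at ZT1 lay below all others. The means were 659 ± 20.2 (SD) at ZT13 and 326 ± 12.7 at ZT1, a ratio of 2.02. The cosine had an amplitude of 0.46 ± 0.044 (SE), a peak at ZT12.6 ± 0.36 h and an adjusted P of 2.3e-06, and it took up 0.90 of the variance over the 18 livers. No step of 4 h was called on its own, and the steps ranged from -0.42 (ZT13 to ZT17) to 0.40 (ZT5 to ZT9), each ± 0.10. Several of these steps were called under other settings: ZT5 to ZT9 without ZT5 replicate 3 (0.51, adjusted P = 0.0229), ZT13 to ZT17 without ZT5 replicate 1 or 3 (0.0399 and 0.0392) and ZT1 to ZT5 without ZT5 replicate 1 (0.0344) or with equal column sums (0.0413). With a trended prior variance or voom weights all 3 were called, with adjusted P from 0.0233 to 0.0434. In order of their means, the neighbours ZT9 and ZT17, ZT17 and ZT5, and ZT5 and ZT21 overlapped.

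Dgat1 stayed between 10.7 (ZT21 replicate 2) and 18.7 (ZT13 replicate 3). Its values were 12.2, 10.7 and 15.0 at ZT21, the lowest time, and 16.4, 16.4 and 18.7 at ZT13, the highest. These groups did not overlap, with means of 12.6 ± 2.14 and 17.2 ± 1.33 (SD). The cosine was not called (amplitude 0.16 ± 0.055, adjusted P = 0.0704). It was called with the columns scaled to an equal sum (0.0365) and without ZT1 replicate 1 (0.0357). The log2 ratio of Dgat1 to Dgat2 within a liver was -4.44 ± 0.30 (SD) at ZT1 and -5.18 ± 0.10 at ZT13, and its variation over the day was called (permutation test, P = 0.0188, adjusted 0.0282). Without ZT1 replicate 1 or ZT1 replicate 2 the adjusted P was 0.0669 or 0.0675. Without ZT5 replicate 3 the ratio was highest at ZT5, at -4.42, with an adjusted P of 0.0132.

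Pnpla2 encodes adipose triglyceride lipase, which removes the first fatty acid from triglyceride (chr7:141455198-141460743, plus strand). Its values were 41.0, 38.2 and 36.1 at ZT1, 70.2, 66.3 and 63.6 at ZT5 and 58.6, 68.6 and 58.7 at ZT9. They were 72.1, 50 and 42.9 at ZT13, 34.3, 27.3 and 34.6 at ZT17 and 41.1, 39.9 and 33.1 at ZT21. All 9 livers from ZT5 to ZT13 exceeded all 9 livers of ZT17, ZT21 and ZT1. The means were 66.7 ± 3.34 (SD) at ZT5 and 32.1 ± 4.13 at ZT17, a ratio of 2.08, and the cosine had an amplitude of 0.51 ± 0.075 (SE) and a peak at ZT7.75 ± 0.56 h (adjusted P = 0.000218).

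Pnpla2 rose by 0.78 ± 0.16 (SE) on the log2 scale from ZT1 to ZT5 (adjusted P = 0.00832) and fell by 0.73 ± 0.16 from ZT13 to ZT17 (adjusted P = 0.0332). The rise was 0.81 without ZT5 replicate 3, with an adjusted P of 0.0260. The fall was not called without ZT13 replicate 1 (0.105), ZT13 replicate 2 (0.0619), ZT17 replicate 1 (0.0793), ZT17 replicate 2 (0.106) or ZT17 replicate 3 (0.0701). The 5 Kupffer cell markers summed to 98.0 to 203 at ZT1, 169 to 229 at ZT5, 176 to 215 at ZT9, 160 to 212 at ZT13, 85.3 to 199.6 at ZT17 and 86.0 to 133 at ZT21. The 5 endothelial markers summed to 102 to 158 at ZT1, 152 to 190.4 at ZT5, 134 to 171 at ZT9, 113 to 157 at ZT13, 78.5 to 152 at ZT17 and 81.8 to 128 at ZT21. The marker sums overlapped between ZT1 and ZT5 and between ZT13 and ZT17, the steps at which Pnpla2 was called. The mean of each of these markers rose from ZT1 to ZT5 and fell from ZT13 to ZT17, the directions of Pnpla2. For Cd5l the means were 49.8 at ZT1, 73.4 at ZT5, 62.9 at ZT13 and 44.9 at ZT17. For Clec4g they were 36.5, 37.8, 39.1 and 38.0. The part of the markers in the Pnpla2 values was not tested.

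Pnpla3, which encodes a droplet protein of the same patatin-like family (chr15:84167837-84187236, plus strand), varied far more between replicates. It had 7.17, 6.60 and 15.8 at ZT1, 13.7, 4.01 and 5.89 at ZT5 and 6.38, 2.89 and 1.73 at ZT9. It had 31.8, 12.1 and 51.2 at ZT13, 2.72, 40.9 and 7.84 at ZT17 and 16.1, 9.18 and 26.8 at ZT21. The livers of ZT13 lay above those of ZT9, but ZT17 alone ran from near the lowest to near the highest value of the day. The CV between replicates averaged 69.5%, above that of 98.2% of all genes, against a median of 13.8%.

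The highest and lowest means of Pnpla3, at ZT13 and ZT9, had a ratio of 8.65. The cosine was not called (amplitude 0.75 ± 0.35, adjusted P = 0.216), other than without ZT17 replicate 1 (amplitude 1.06, adjusted P = 0.0447). The test of any difference between times was called without ZT17 replicate 1 (0.0470) or ZT17 replicate 2 (0.0211), against 0.101 with both. From ZT9 to ZT13 Pnpla3 rose by 2.72 ± 0.74 on the log2 scale (adjusted P = 0.0306). That call was lost with voom weights (0.0821) and without ZT9 replicate 2 (0.0929), ZT9 replicate 3 (0.103), ZT13 replicate 1 (0.0974) or ZT13 replicate 3 (0.106).

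Plin2 encodes perilipin 2, the main coat protein of hepatocyte lipid droplets (chr4:86648386-86670060, minus strand). Its promoter is shown because it was the only one of the 12 RefSeq promoters found for the members, of 8 genes, that held 2 of the motifs searched.
Plin2, chr4:86670040-86670309, minus strand: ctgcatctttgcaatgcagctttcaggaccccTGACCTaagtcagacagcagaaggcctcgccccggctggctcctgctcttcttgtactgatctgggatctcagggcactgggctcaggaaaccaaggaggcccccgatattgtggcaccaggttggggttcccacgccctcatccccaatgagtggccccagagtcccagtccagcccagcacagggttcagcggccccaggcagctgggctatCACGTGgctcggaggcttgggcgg
The run in capitals nearer the 5′ end is AGGTCA on the opposite strand, beginning at position -218, and the other is the E-box CACGTG, beginning at position -4. Among the other members, Gpam had AGGTCA at position -196. The D-box forms TTATGTAA (0.938% of promoters) and TTACGTAA (0.119%), 2 copies of AGGTCA 1 base apart (0.0396%), the sterol element TCACNCCAC (1.24%) and TATAAA (13.6%) were in none of the 12 windows.

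Plin2 had values of 432, 509.7 and 523 at ZT1, 556, 396 and 395 at ZT5 and 325, 290.3 and 227 at ZT9. It had 229.7, 326 and 299 at ZT13, 341, 404 and 418 at ZT17 and 405, 471 and 418 at ZT21. All 6 livers of ZT9 and ZT13 lay below all 12 livers of the other times, and ZT9 and ZT13 overlapped. The means were 488 ± 48.7 (SD) at ZT1 and 281 ± 49.3 at ZT9, a ratio of 1.74. The cosine had an amplitude of 0.42 ± 0.072 (SE) and a peak at ZT23.8 ± 0.66 h (adjusted P = 0.000823). The step from ZT5 to ZT9 was not called, at -0.67 ± 0.17 on the log2 scale with an adjusted P of 0.0597. It was called with a trended prior variance (0.0239), with voom weights (0.0245) and without ZT13 replicate 1 (0.0432).

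Cidec encodes a protein that joins droplets into larger ones (chr6:113424634-113435760, minus strand), and it was the lowest of the 10 genes, at 9 to 56.0 estimated reads per liver. Its normalized values were 0.865, 0.955 and 0.908 at ZT1, 1.58, 1.59 and 2.35 at ZT5 and 3.02, 1.82 and 1.17 at ZT9. They were 3.57, 2.57 and 2.65 at ZT13, 1.68, 2.21 and 1.46 at ZT17 and 1.25, 1.28 and 1.49 at ZT21. The livers of ZT1 lay below all others, and those of ZT13 overlapped those of ZT9 alone. The means were 2.93 ± 0.55 (SD) at ZT13 and 0.909 ± 0.045 at ZT1, a ratio of 3.22, and the cosine had an amplitude of 0.40 ± 0.080 (SE), understated at this level by the pseudocount of 1, and a peak at ZT12.1 ± 0.76 h (adjusted P = 0.00280). Its step from ZT1 to ZT5 (0.56, adjusted P = 0.0910) was called without ZT9 replicate 1 (0.0329) or ZT9 replicate 3 (0.0473), and that from ZT9 to ZT13 (0.42, 0.158) without ZT9 replicate 1 (0.0220). Cfd, the only adipocyte marker at hand, was also highest at ZT13 in its mean (1.14 ± 0.56), with 0.309 ± 0.19 at ZT1. Its lowest mean was at ZT17 (0.264 ± 0.33), where Cidec averaged 1.78 ± 0.38, above its mean at ZT1. The part of Cfd-expressing cells in the Cidec values was not tested.

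The ratio of Plin2 to Cidec had the lowest P of the 6 pairs. The log2 ratio within a liver, of values with 1 added, was 8.00 ± 0.12 (SD) at ZT1 and 6.18 ± 0.46 at ZT13 (permutation test, P = 3e-05, adjusted 0.00018). With a pseudocount of 0.1 it was 8.91 ± 0.11 at ZT1 and 6.56 ± 0.51 at ZT13. At the low values of Cidec, the size of this ratio and of its change thus depended on the pseudocount. The ratio of the last synthetic gene to the lipase gene, Dgat2 to Pnpla2, also varied, from 2.60 ± 0.29 at ZT5 to 3.91 ± 0.13 at ZT17 (P = 0.00021 in the permutation test, adjusted 0.00063). Neither call was lost in any of 19 alternatives. Without ZT5 replicate 3 the ratio of Dgat2 to Pnpla2 at ZT5 was 2.45 and the adjusted P 0.0006. For Gpam and Agpat2 the permutation test was not called (P = 0.152, adjusted 0.152), except without ZT13 replicate 1 (adjusted 0.00834). Their log2 ratio ran from -0.48 ± 0.45 at ZT21 to 0.53 ± 0.20 at ZT5. Without ZT5 replicate 3 that ratio was 0.60 at ZT5, with an adjusted P of 0.215 in the permutation test. The ratio of Pnpla2 to Pnpla3, which ran from 0.95 ± 1.12 at ZT13 to 3.88 ± 0.76 at ZT9, was not called either (permutation test, P = 0.0512, adjusted 0.0614). Leaving out ZT13 replicate 2 (0.0489), ZT17 replicate 1 (0.0323) or ZT17 replicate 2 (0.0203) brought that pair below the threshold. In all, the ratio varied in 4 of 6 pairs. The pairs were chosen with earlier results of these data known. Plin2 and Cidec were each called by the cosine in the same livers, with peaks at ZT23.8 and ZT12.1. Dgat2 and Pnpla2 were too, with peaks at ZT12.6 and ZT7.75. The calls of these 2 ratios are therefore no independent support for the rhythms.

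**Figure D3:**
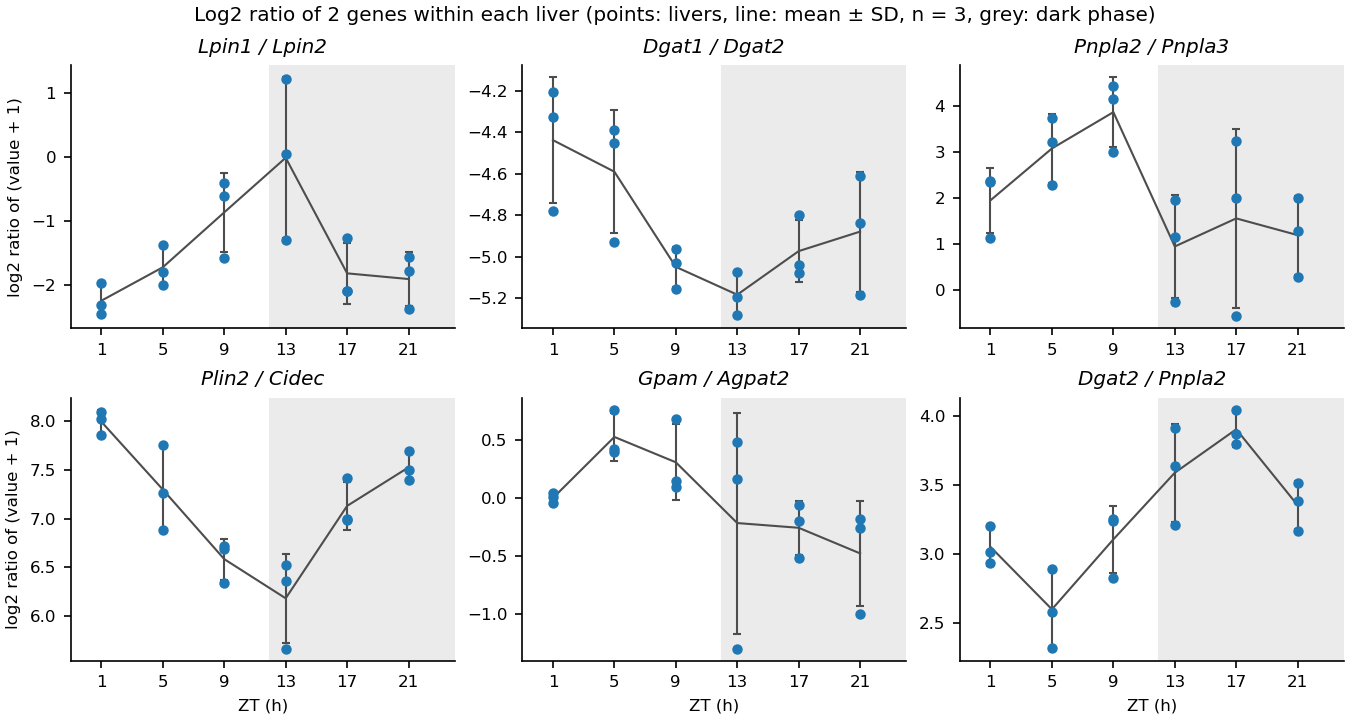
Log2 ratio of (value + 1) of 2 genes within each liver against ZT in hours, for 6 pairs, with livers as points, the mean ± SD of 3 livers as a line and the dark phase in grey. Plin2 to Cidec fell from 8.00 at ZT1 to 6.18 at ZT13, and Dgat2 to Pnpla2 rose from 2.60 at ZT5 to 3.91 at ZT17. Vertical axes differ between panels and do not start at 0.

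By 4 h steps, the members called fell in 3 of the 6 steps. From ZT1 to ZT5, 2 members were called, Agpat2 downwards and Pnpla2 upwards, with 4.89% of all genes called. From ZT9 to ZT13, across lights off, 2 were called, Agpat2 and Pnpla3, both upwards (9.23% of all genes), and from ZT13 to ZT17 another 2, Lpin1 and Pnpla2, both downwards (1.20%). No member was called by limma from ZT5 to ZT9 (1.54% of all genes), although 3 members and 1764 genes had an unadjusted P below 0.05 there. None was called from ZT17 to ZT21 (1.51%), where 2 members and 2093 genes had an unadjusted P below 0.05, or from ZT21 to ZT1 (0.131%), where 1 member and 1326 genes did. Neighbouring steps share the livers of the time between them.

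In 5 of the genes, the same liver held an extreme of the day, which was noticed after the values were seen. ZT13 replicate 1 had the lowest value of the 18 livers for Gpam (97.7) and the highest for Lpin1 (271), Pnpla2 (72.1), Cidec (3.57) and Dgat2 (676). Another liver of that time, ZT13 replicate 3, had the highest value for Gpam (348), Agpat2 (247), Dgat1 (18.7) and Pnpla3 (51.2). How often a liver holds an extreme over all genes was not counted, so neither liver can be called unusual from this. Without ZT13 replicate 1, the 6 genes called by the cosine remained called.

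JTK, a rank test against cosine orders of 20, 24 and 28 h, called 2 of the 10 genes at a q-value below 0.05, Dgat2 (q = 0.00474) and Plin2 (q = 0.0344), where it called 14.0% of all genes. Agpat2 and Cidec had q = 0.0542 and Pnpla2 had q = 0.0852, and 5 members had an unadjusted P below 0.05. For Lpin1, the gene with the largest amplitude, q was 0.196. The mean CV between replicates was 36.0% for Lpin1, 14.1% for Plin2, 6.97% for Agpat2 and 6.88% for Dgat2. The call of Dgat2 held in 22 of 22 alternatives, whereas that of Plin2 held in 12 of 22. Plin2 was lost (q up to 0.0704) without ZT5 replicate 2 or 3, without any 1 liver of ZT9 or of ZT13, and without ZT17 replicate 1 or 2.

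Other genes of the pathway were taken from lists. The lists were chosen with earlier results of these data known, so their shares are a description and no independent test. Over all genes tested, 35.3% were called by the 24 h cosine, and the median amplitude was 0.16. Of the called genes, 48.4% peaked in the dark (2469 in the dark and 2634 in the light). Of 16 other genes of glycerolipid synthesis tested, 7 (43.8%) were called, 4 with a peak in the light and 3 in the dark, with a median amplitude of 0.24 over the 16. The test of any difference between times called 7 of the 16 and JTK 6, against 26.3% and 14.0% of all genes. Gpat4, which encodes the acyltransferase of the endoplasmic reticulum for the same step as Gpam, rose from a mean of 112 ± 8.9 (SD) at ZT1 to 232 ± 51 at ZT13, with an amplitude of 0.39 ± 0.072 (SE) and a peak at ZT12.9 (adjusted P = 0.00147). Agpat1, of the step of Agpat2, peaked at ZT13.5 (amplitude 0.46 ± 0.068, adjusted P = 0.000216). Thus the fitted peaks of Gpat4 and Agpat1 lay near that of Dgat2. Lpin3, the remaining lipin gene, peaked at ZT2.72 at a low level, with means of 2.51 to 5.45 (amplitude 0.36 ± 0.079, adjusted P = 0.00534). Gpat3 (adjusted P = 0.226), Agpat3 (0.403) and Mogat1 (0.599) were not called.

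Of 19 other genes listed under lipolysis, its regulators and related proteins, 13 (68.4%) were called, 5 with a peak in the light and 8 in the dark. The median amplitude of the 19 was 0.24. The test of any difference between times called 12 of the 19 and JTK 9, against 26.3% and 14.0% of all genes. G0s2, which encodes an inhibitor of adipose triglyceride lipase, had its lowest mean at ZT9, 28.2 ± 9.2 (SD), and its highest at ZT17, 111 ± 53 (amplitude 0.97 ± 0.20, peak ZT16.7, adjusted P = 0.00296). Pnpla2 itself peaked at ZT7.75 and had its lowest mean at ZT17. Abhd5, which encodes the coactivator of that lipase, had its highest mean at ZT21, 47.4 ± 14, and its lowest at ZT5, 31.0 ± 1.5 (peak ZT20.2, adjusted P = 0.0130). Mgll, the monoacylglycerol lipase gene, peaked at ZT14.0 (amplitude 0.56 ± 0.054, adjusted P = 2.7e-06), and the carboxylesterase gene Ces1d at ZT16.7 (amplitude 0.69 ± 0.093, adjusted P = 9.4e-05). Lipe, the hormone-sensitive lipase gene, was not called (adjusted P = 0.654). JTK called Mgll (q = 0.00913) and Ces1d (q = 0.00758) but not G0s2 (q = 0.105) or Abhd5 (q = 0.159). In the test of any difference between times, Abhd5 had an adjusted P of 0.0561.

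Of 18 other lipid droplet genes, 10 (55.6%) were called by the cosine, 2 with a peak in the light and 8 in the dark, with a median amplitude of 0.16. The test of any difference between times called 5 of the 18 and JTK 3, against 26.3% and 14.0% of all genes. Plin5, which encodes the perilipin that ties droplets to mitochondria, had means of 21.1 ± 1.6 (SD) at ZT9 and 61.8 ± 8.0 at ZT13 (amplitude 0.77 ± 0.10, peak ZT17.5, adjusted P = 6.4e-05). Plin4 rose from 3.25 ± 1.7 at ZT9 to 12.5 ± 1.2 at ZT13 (peak ZT15.2, adjusted P = 0.0113). Plin3 peaked at ZT2.59 with an amplitude of 0.22 ± 0.058 (adjusted P = 0.0187). The fitted peaks of the perilipin genes Plin2, Plin3, Plin4 and Plin5 thus ranged over the night and the early day. Hilpda, an inhibitor of the same lipase, peaked at ZT19.6 (adjusted P = 0.00703), and Fitm2, of droplet formation, at ZT12.9 (adjusted P = 0.00173). Cideb (0.312) and Bscl2 (0.766) were not called. JTK called Plin5 (q = 0.0282) and Fitm2 (q = 0.0435) but not Plin3 (q = 0.238), Plin4 (q = 0.196) or Hilpda (q = 0.0542). In the test of any difference between times, Plin3 had an adjusted P of 0.0783.

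**Figure D4:**
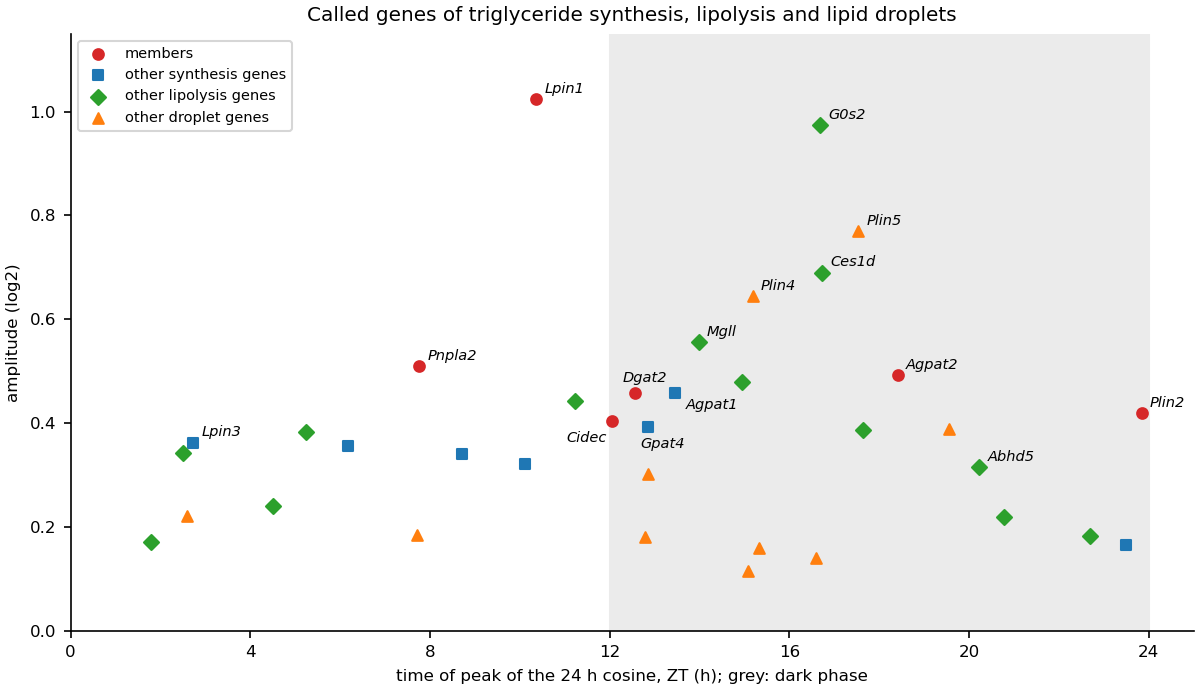
Amplitude (log2) against the time of peak (ZT in hours) of the 24 h cosine, for the genes called among the members (6), other synthesis genes (7), other lipolysis genes (13) and other lipid droplet genes (10), with the dark phase in grey. G0s2 (0.97 at ZT16.7) and Lpin1 (1.02 at ZT10.4) had the largest amplitudes shown.

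Of 25 transcription factors and cofactors of lipid metabolism, 17 (68.0%) were called by the cosine, 12 with a peak in the light and 5 in the dark. The test of any difference between times called 15 of the 25 and JTK 10, against 26.3% and 14.0% of all genes. Srebf1, the gene of the lipogenic factor SREBP-1, peaked at ZT11.9, with means of 255 ± 33 (SD) at ZT21 and 654 ± 57 at ZT13 (amplitude 0.57 ± 0.092, adjusted P = 0.000488). Ppara, the gene of the receptor that drives fatty acid oxidation, peaked at ZT8.33, with 64.9 ± 5.5 at ZT1 and 121 ± 6.3 at ZT9 (amplitude 0.52 ± 0.087, adjusted P = 0.000604). Pparg (0.342) and Mlxipl (0.146) were not called. JTK called Ppara (q = 0.0354) but not Srebf1 (q = 0.0524).

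As a description over the 18 livers, which share the sampling times, the genes most alike to each called member were found by Pearson's r of log2(value + 1). For Agpat2 they were Mpst (0.969), Plin5 (0.950) and Mrap (0.941), and for Lpin1 they were Arhgef26 (0.881), Pfkfb3 (0.848) and Hs6st1 (0.842). Dgat2 was nearest to Slc37a4 (0.968), the gene of the glucose 6-phosphate transporter, Bnip3 (0.968) and Homer2 (0.958). For Pnpla2 the nearest were Pcbp2 (0.941), Cpt1a (0.937), which encodes the carnitine palmitoyltransferase of mitochondrial fatty acid uptake, and Igsf8 (0.915). Plin2 was nearest to Tfpi2 (0.927), Acsl5 (0.917), an acyl-CoA synthetase gene, and BC004004 (0.910), and Cidec to Bnip3 (0.868), Slc39a14 (0.867) and Atl2 (0.865).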

How the data were processed

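RNA from 18 livers, 3 at each of 6 times, was sequenced. Per the submitters' processing notes, CASAVA 1.8.2, cutadapt and RSEM 1.2.20 were used with GRCm38. The authors normalized the estimated counts with limma. What they deposited is a linear signal that equals estimated reads with 0.5 added, per 1000000 reads at an adjusted library size. The lowest value of a liver gave the value of 1 read. Depth was 10268168 to 23242842 estimated reads per liver, and 14449 genes were tested after 2 without reads were left out.

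Tests were made in R 4.3.3 with limma 3.58.1 on log2(value + 1), with Benjamini–Hochberg adjustment over all genes and calls below 0.05. They were a moderated F test of a 24 h cosine, the same with a 12 h term, an F test over the times and 6 steps between neighbouring times. JTK (20, 24 and 28 h, exact null) and permutation tests of 6 ratios (100000 resamples of an F statistic, which has no direction) were written in Python 3.11.15 with numpy 2.4.6. MetaCycle and CircaN were not run. The fits and JTK were tested on simulated data. Coordinates are from GENCODE M21 (GRCm38), and promoters from RefSeq. Replicate numbers follow the order of deposit and pair nothing. That the 3 livers of a time are separate mice comes from the study's methods. The members, lists and pairs were chosen with earlier results of these data known. All 10 members are named, with 22 preset genes of the lists and the 3 genes most alike to each called member. Alternatives were another pseudocount, 2 scalings, a filter on low values, a trended prior variance, voom weights, JTK orders of 24 h alone, and leaving out each liver in turn.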

Additional observations from a re-analysis of the deposited data

How the results depend on the processing

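The count of 6 members called by the 24 h cosine stayed between 6 and 7 over 24 alternatives, and the 6 genes were called in each of them. The count in the test of any difference between times stayed between 6 and 8, that from ZT1 to ZT5 between 2 and 3, and those from ZT17 to ZT21 and from ZT21 to ZT1 at 0. No called value changed sign. Of the 60 changes of a member over a 4 h step, 10 changed sign under some alternative, none of them called in either fit. With a 12 h term, 1 member instead of 0 was called with genes of a mean value of at least 1, with a trended prior variance and with voom weights, and 0 to 1 when a liver was left out. From ZT5 to ZT9, 2 were called instead of 0 with a trended prior variance and with voom weights, Dgat2 and Plin2, and 0 to 1 when a liver was left out. From ZT9 to ZT13, 1 was called instead of 2 with voom weights, 3 with a trended prior variance, and 1 to 3 when a liver was left out. From ZT13 to ZT17, 1 was called instead of 2 with a pseudocount of 0.1 and with equal upper quartiles, 3 with a trended prior variance and with voom weights, and 0 to 2 when a liver was left out. JTK called 4 members instead of 2 with orders of 24 h only and with genes of a mean value of at least 1, and 1 to 3 when a liver was left out. The pairs whose ratio varied numbered 4, and 2 to 5 when a liver was left out. The cause of these changes was not tested. Over all genes, leaving out a liver or changing a setting moved the counts called from 126 to between 32 and 176 with the 12 h term, from 706 to between 352 and 941 from ZT1 to ZT5, from 222 to between 79 and 334 from ZT5 to ZT9 and from 1334 to between 701 and 1605 from ZT9 to ZT13. The ranges were 49 to 309 for the 174 genes from ZT13 to ZT17, 49 to 333 for the 218 from ZT17 to ZT21, 9 to 29 for the 19 from ZT21 to ZT1, and 1127 to 2514 for the 2018 of JTK. No paired analysis was possible because the replicate numbers come from the order of deposit. With 3 livers per time, P-values rest on the spread between mice, and at the low level of Cidec the depth limits the precision.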
